A study of Mus musculus with 20 samples.

Results

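Small RNA of mouse embryonic stem cells in state 3 was compared with small RNA of cells in state 1. Embryonic stem cells are cultured pluripotent cells of the early embryo, and these were grown in fetal bovine serum with leukemia inhibitory factor, the cytokine that holds them undifferentiated. Flow sorting used Nanog and Sox2, transcription factors of pluripotency: state 1 had high levels of both, state 3 had low levels of both, and state 2 had low Nanog with high Sox2. The unsorted total population was the remaining group, and all groups shared the same culture conditions. Genotype, cell line and the means by which Nanog and Sox2 levels were read are not stated in the sources used here. The comparison rests on 4 of the 20 libraries of the series, 2 for each state. The deposited table merges them into 1 value per group, so no value below has a standard deviation. Every feature of the table was taken: 26278 in all, of which 605 are microRNA hairpins (named mmu- with a miRBase identifier) and 25673 are other RNAs or their fragments. The measure throughout is log2((state 3 + 1)/(state 1 + 1)), here called the log2 ratio, where 0 is equality and -1 is a halved level. Where 4 values are given for a feature, they stand in the order state 3, state 2, state 1, total population.

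MicroRNAs are short RNAs cut from hairpin precursors. Loaded on Argonaute proteins, they lower the output of messenger RNAs that pair with their seed, the bases near the 5′ end. In mouse embryonic stem cells the miR-290 to miR-295 cluster is the leading source of microRNAs, and its members with an AAGUGC-type seed promote the cell cycle and oppose let-7, a family linked to differentiation. The miR-302 and miR-367 cluster carries the same type of seed and is known from the later, primed pluripotent state. Several other microRNAs lie inside Hox clusters or introns of protein-coding genes and are made from the transcripts of those hosts.

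The sequences below are mature microRNAs from RefSeq on GRCm38.p6, 5′ to 3′, with the seed (bases 2 to 8) in capitals. The table counts hairpins and does not separate their 2 arms, so a sequence shown here stands for its hairpin. Of the 605 hairpins, 603 were matched to RefSeq and 528 had a mature sequence. The first set is shown because 8 of its members have AAGUGC or its shifted forms in the seed, yet their clusters went opposite ways. The sequences miR-292a-5p and miR-292b-3p, with other seeds, are shown for the most abundant hairpin and the one that overlaps it. The reference held no sequence for the other arm of mir-292a. The seed of that arm was therefore not read, and the seed shown does not place mir-292a outside the AAGUGC group. The members of the miR-290 to miR-295 cluster lie on chr7:3218626-3220841, mostly on the plus strand, and the miR-302 members on chr3:127545228-127545807, on the plus strand.
miR-290a-3p: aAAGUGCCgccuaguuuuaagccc
miR-291a-3p: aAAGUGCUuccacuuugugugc
miR-294-3p: aAAGUGCUucccuuuugugugu
miR-295-3p: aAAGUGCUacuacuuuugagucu
miR-302b-3p: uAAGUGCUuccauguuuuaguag
miR-302d-3p: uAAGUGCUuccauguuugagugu
miR-302c-3p: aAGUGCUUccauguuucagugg
miR-293-3p: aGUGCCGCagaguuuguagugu
miR-292a-5p: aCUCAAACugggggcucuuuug
miR-292b-3p: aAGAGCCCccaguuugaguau

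The second set holds abundant microRNAs that were called lower or, for miR-92a, were not called, and miR-367, shown for its seed. The miR-183, miR-96 and miR-182 cluster lies on the minus strand of chr6:30165918-30169737. The seed AUUGCAC is shared by miR-92a, miR-25 and miR-367, which come from different clusters.
miR-183-5p: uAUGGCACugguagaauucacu
miR-96-5p: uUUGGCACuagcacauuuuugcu
miR-182-5p: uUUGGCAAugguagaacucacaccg
miR-92a-3p: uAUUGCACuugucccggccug
miR-25-3p: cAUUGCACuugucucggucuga
miR-367-3p: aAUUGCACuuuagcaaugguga
miR-26a-5p: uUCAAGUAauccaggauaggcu
miR-26b-5p: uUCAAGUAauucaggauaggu
let-7g-5p: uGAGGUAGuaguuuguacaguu
miR-148a-3p: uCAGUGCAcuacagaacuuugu

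The third set holds microRNAs with large ratios, including pairs that share a seed and moved apart. Positions in a microRNA are counted from 1 at its 5′ end: miR-196a-5p and miR-196b-5p differ by A12C, and miR-10a-5p and miR-10b-5p by U12A.
miR-196a-5p: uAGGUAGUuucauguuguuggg
miR-196b-5p: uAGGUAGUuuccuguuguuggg
miR-10a-5p: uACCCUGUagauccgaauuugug
miR-10b-5p: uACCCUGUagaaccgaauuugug
miR-146a-5p: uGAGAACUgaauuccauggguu
miR-146b-5p: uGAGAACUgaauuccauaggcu
miR-9-5p: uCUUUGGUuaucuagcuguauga
miR-21a-5p: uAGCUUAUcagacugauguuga
miR-615-3p: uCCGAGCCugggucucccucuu
miR-483-3p: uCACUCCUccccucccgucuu
miR-504-5p: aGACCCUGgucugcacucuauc

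Hairpins took a smaller part of the state 3 column than of any other. They summed to 1008918, 2000658, 3334638 and 2526866, or 38.7%, 58.4%, 65.0% and 60.9% of the column totals. The hairpin sum was thus 3.31-fold lower in state 3 than in state 1, while the sum of all other features, 1601318 against 1792561, was 1.12-fold lower. Because the deposited values of the other features have nearly equal sums, a log2 ratio here reads a hairpin against that sum. The sum joins classes that went opposite ways. Features typed rRNA summed to 671217 in state 3 and 400887 in state 1, and snoRNAs to 495979 and 981128. Of the rRNA sums, 661165 and 390926 came from a single feature, CT010467.1, which was not called. In bulk libraries, fewer cells of a type and less RNA per cell cannot be told apart. About 8.42 M reads stood behind state 3 and 10.9 M behind state 1, estimated from the commonest low value, which makes 3 reads worth 0.93 and 1.41 in these columns.

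**Figure D1:**
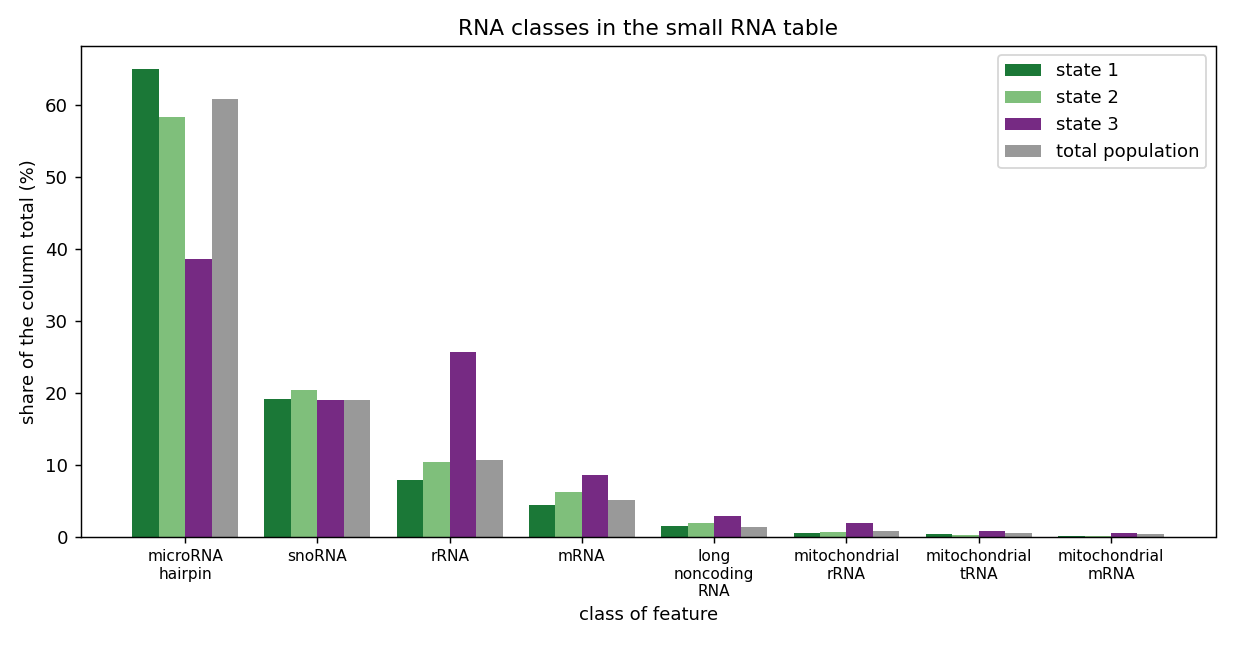
Share of the column total (%) taken by 8 RNA classes in the small RNA table, 1 bar per group. Hairpins took 65.0% in state 1 and 38.7% in state 3, while features typed rRNA took 7.82% and 25.7%. Nearly all of the rRNA share was a single feature, CT010467.1, which was not called. The snoRNAs took between 18.96% and 20.5% in every group.

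Of the 605 hairpins, 153 (25.3%) were called different, against 428 (1.63%) of all 26278 features. A difference was called where the posteriors of the authors' deposited table, summed over the patterns that set the 2 states apart, reached 0.95. The direction was strongly one-sided: 136 hairpins (22.5%) were called lower in state 3 and 17 (2.81%) higher, against 1.08% and 0.552% of all features. Called falls had a median log2 ratio of -1.87 (range -4.32 to -0.71) and called rises one of 2.64 (0.73 to 4.71). Among the 227 hairpins of at least 10 ppm (parts of the column total, averaged over both states), 139 (61.2%) were called, against 278 of 1346 features (20.7%) at that level. Their median log2 ratio was -1.08 (quartiles -1.87 and -0.48), with 193 below 0, whereas the 1119 other features at that level had a median of 0.01. The median over all 605 hairpins was -0.59.

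Abundance and direction went together. All 44 calls among the 64 hairpins with a mean of 1000 or more were falls. Between 100 and 1000 there were 58 falls and 6 rises among 96 hairpins, between 10 and 100 there were 31 falls and 11 rises among 135, and under 10 only 3 of 310 were called. A change of 2-fold was not always called: 17 of the 142 hairpins of at least 10 ppm with such a change missed the threshold.

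**Figure D2:**
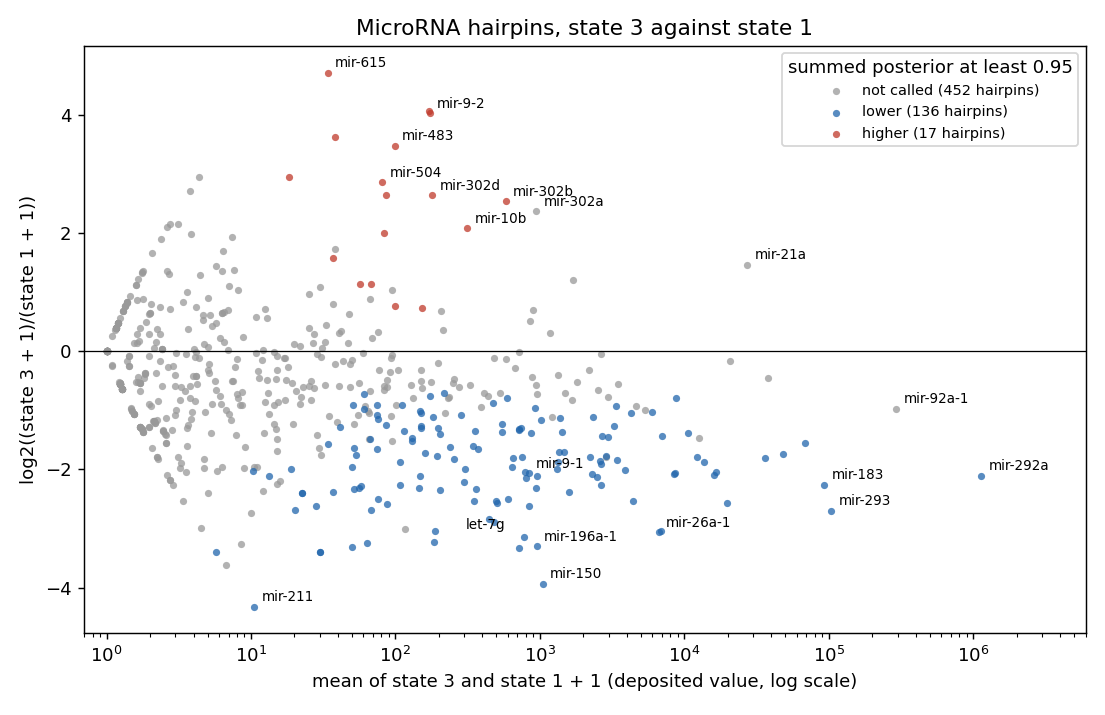
Each point is 1 of the 605 hairpins; the x axis (log scale) is the mean of the state 3 and state 1 values plus 1 and the y axis the log2 ratio. Blue points (136, called lower) reach up to mir-292a at the right edge, red points (17, called higher) all lie below a mean of 1000, and mir-92a-1 and mir-21a are abundant grey points that were not called.

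The split of these calls depends on what state 3 is measured against. Relative to the column total, 28 of the called hairpins were higher and 125 lower in state 3; relative to the summed hairpins, 72 were higher and 81 lower. Dividing by the column totals moved the median log2 ratio of all features of at least 10 ppm from -0.10 to 0.83, a shift of 0.93. The corresponding medians of the hairpins at that level were -0.12 relative to the column total and 0.61 relative to the hairpin sum. Ratios below are on the deposited scale. Of the 136 called falls 11 turned above 0 relative to the column total and 55 relative to the hairpin sum, whereas 0 of the 17 called rises changed sign under either.

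The miR-290 to miR-295 cluster, the hallmark microRNA locus of mouse embryonic stem cells, was called lower in 9 of 9 hairpins, with a median log2 ratio of -2.05. The direction of its median was the same relative to the column total (-1.08) and relative to the hairpin sum (-0.33). The cluster made up 66.5% of the hairpin sum in state 1, 60.8% in state 2 and 50.8% in state 3. Its most abundant member, mir-292a, stood at 430145 in state 3, 1035592 in state 2, 1855076 in state 1 and 1384684 in the total population. Its level followed the order of the states, and its log2 ratio was -2.11. That single hairpin was 55.6% of all hairpin signal in state 1 and 42.6% in state 3.

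The deepest fall in the cluster was that of mir-293, at 27843, 83424, 181003 and 121927, a log2 ratio of -2.70. Hairpins of the AAGUGCU seed, which carry the cell cycle function known for this locus, fell to a like extent: the log2 ratio was -1.87 for mir-291a, -2.04 for mir-294 and -2.09 for mir-295. The smallest falls belonged to mir-290b (-1.37) and mir-292b (-1.55), whose hairpins overlap mir-290a and mir-292a on the opposite strand. The sources used here do not say whether reads were counted by strand, so values of such pairs are uncertain. With the hairpin sum as the base, mir-292b turned to 0.18 and mir-290b to 0.35.

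The miR-302 and miR-367 cluster went the other way. All 5 hairpins had a log2 ratio above 0 (2.16 to 2.94) and 3 were called higher. Under both other scalings the median moved further up, from 2.53 to 3.33 and 4.08. mir-302b stood at 992, 898, 170 and 558 (log2 ratio 2.53). mir-302d stood at 310, 212, 48.8 and 183 in the same order (2.64). mir-302c was at 31.4, 28.2, 3.21 and 23.3 (2.94). In each of these state 3 lay highest, state 2 next, then the total population, and state 1 lowest. The most abundant member, mir-302a, was at 1585, 1575, 306 and 769, a log2 ratio of 2.37, and missed the threshold with a summed posterior of 0.828 in the authors' deposited table. mir-367 was listed at 3.47 in state 3 and 0 in state 1. These calls need the pattern order used here: with state 1 and the total population exchanged, the summed posteriors of mir-302b, mir-302d and mir-302c in the authors' deposited table were 0.0112, 0.194 and 0.0727.

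Seed sharing sets the opposite changes of the clusters side by side. Hairpins with the AAGUGCU seed from the miR-290 to miR-295 cluster (mir-291a, mir-294 and mir-295) summed to 18414 in state 3 and 74001 in state 1. Those from the miR-302 cluster (mir-302b and mir-302d) summed to 1303 and 219. The sum of these 2 miR-302 hairpins was therefore 0.296% of the other in state 1 and 7.07% in state 3. Together the 5 hairpins summed to 74220 in state 1 and 19717 in state 3, a log2 of sums of -1.91. mir-302a, at 1585 in state 3 and 306 in state 1, had no mature sequence in the reference and was left out. These sums and percentages therefore do not cover the whole miR-302 cluster.

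The miR-183, miR-96 and miR-182 cluster, best known from sensory organs and also active in stem cells, was called lower in 3 of 3 hairpins. The ratio of each stayed below 0 under the 3 scalings, which bear on the sign and not on the call. mir-183 was at 32194, 58489, 154336 and 110402 (log2 ratio -2.26). mir-182 was at 5651, 14177, 33600 and 24424 (-2.57) and mir-96 at 510, 999.5, 2651 and 2266 (-2.38). As deposited, all 3 declined stepwise from state 1 to state 3. As a share of the hairpin sum, mir-183 took 3.19% in state 3, 2.92% in state 2 and 4.63% in state 1. The shares of mir-96 were 0.0506%, 0.0500% and 0.0795%, so on that scale only mir-182 declined stepwise. Relative to the hairpin sum the median of the cluster was -0.65.

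The oncomir clusters related to miR-17-92 are known to support proliferation. In the miR-17-92 cluster 1 of 5 hairpins was called (mir-18a, log2 ratio -0.71), and in the miR-106a-363 cluster 1 of 6 (mir-363, -1.04). Their medians of -0.71 and -0.48 turned to 0.26 and 0.49 relative to the column total. mir-92a-1, the second most abundant hairpin, was at 198660, 287575, 390040 and 276554. Its log2 ratio of -0.97 was not called, with a summed posterior of 0.00118 in the authors' deposited table. As a share of hairpins the AUUGCAC seed group, which holds mir-92a-1, took 15.1% in state 1 and 25.1% in state 3. The miR-106b-25 cluster, in an intron of the replication gene Mcm7, was called lower in 3 of 3 hairpins, with mir-25 at 16115 against 56360 (-1.81), mir-93 at 685 against 2246 (-1.71) and mir-106b at 3755 against 10170 (-1.44). Its median of -1.71 was 0.012 relative to the hairpin sum, and mir-106b turned to 0.29.

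**Figure D3:**
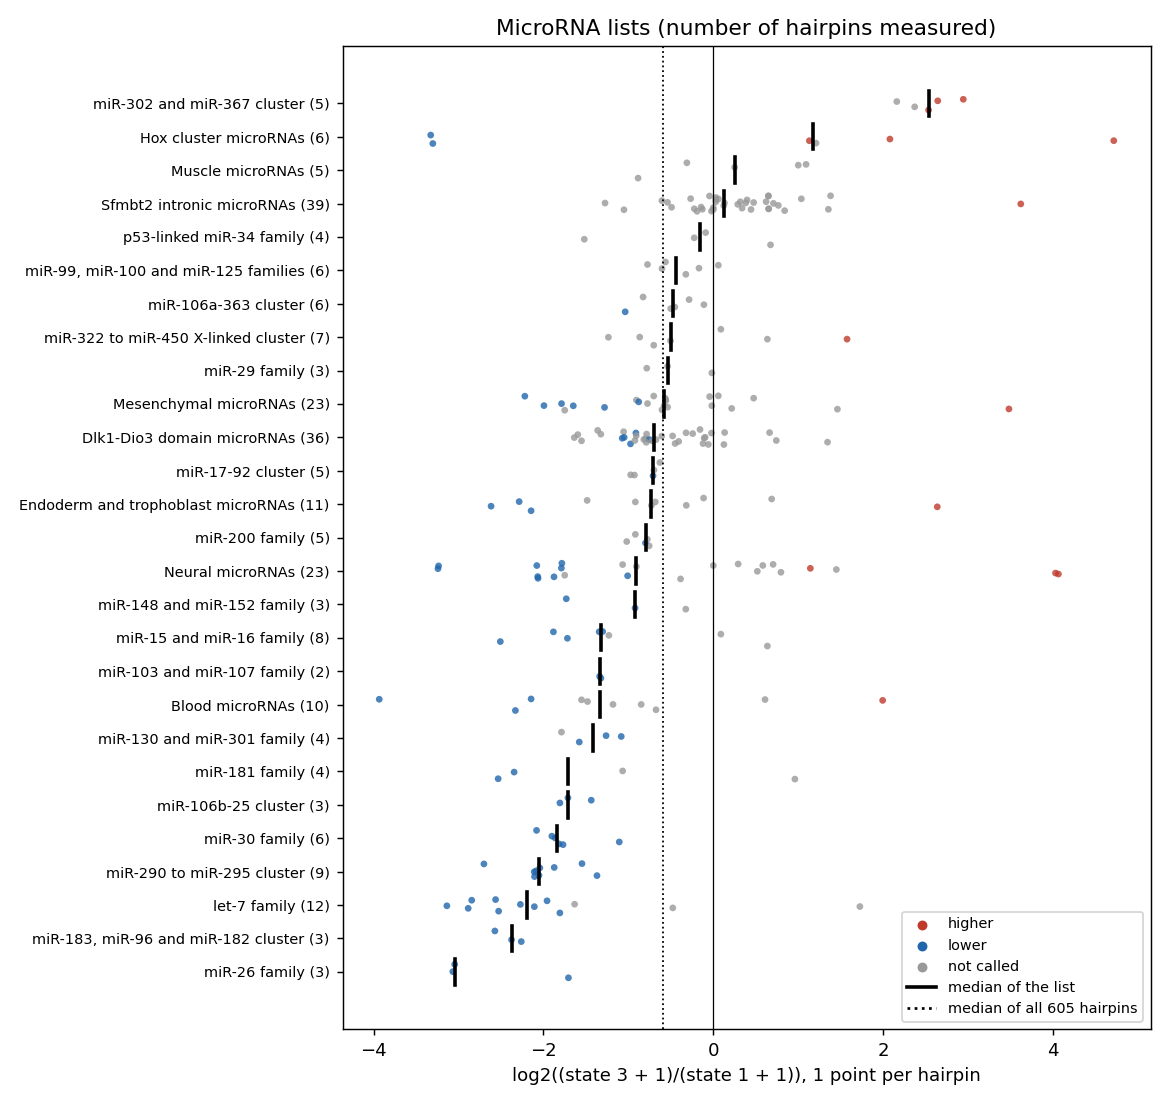
Log2 ratio of each hairpin (points) in 27 lists of microRNA clusters, families and tissue groups, ordered by their median (black bars), with the median of all 605 hairpins (-0.59) as the dotted line. The miR-26 family (-3.04) and the miR-302 and miR-367 cluster (2.53) have the lowest and highest medians; colours give the call.

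Among families, miR-26 had the lowest median, -3.04, and was called lower in 3 of 3 hairpins. These microRNAs lie in introns of the Ctdsp phosphatase genes and are known to restrain growth. mir-26a-1 stood at 1414, 4264, 11854 and 7772. mir-26a-2 stood at 1483, 4405, 12249 and 8077, close to mir-26a-1 in each group, and both encode the same mature sequence. The log2 ratios were -3.07 and -3.04, and -1.71 for mir-26b. Only mir-26b changed direction when hairpins were the base (0.018).

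The let-7 family, generally absent or low in stem cells and increased on differentiation, was called lower in 9 of 12 hairpins and higher in none. Its median log2 ratio was -2.19, and stayed below 0 relative to the column total (-1.13) and to the hairpin sum (-0.55). let-7g was at 156, 487, 1384 and 866 (-3.14), the largest fall of the family. let-7c-2 was at 264, 579, 1026 and 684 (-1.96). let-7e, which lies with mir-99b and mir-125a, was at 213 against 297 and was not called (-0.48). Neither mir-99b (19617 against 22053, -0.17) nor mir-125a (1956 against 2448, -0.32) was called, and 0 of the 6 hairpins of the miR-99, miR-100 and miR-125 families were. let-7a-2 was the exception in sign, at 57.7, 1.10, 16.8 and 12.3, and was not called.

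Several abundant single hairpins and families fell with them. mir-148a, a microRNA that targets DNA methyltransferase transcripts, was at 22488, 55664, 74649 and 66914 (log2 ratio -1.73). The miR-30 family was called lower in 6 of 6 hairpins (median -1.84) and the miR-103 and miR-107 family in 2 of 2 (-1.33). Those 2 hairpins encode the same mature sequence, that of miR-103, and mir-107 was not listed. The miR-15 and miR-16 family was called lower in 5 of 8 hairpins (-1.32). The miR-130 and miR-301 family had 3 of 4 called lower (-1.42) and the miR-181 family 2 of 4 (-1.71). Relative to the hairpin sum the medians turned to 0.39 for miR-103 and miR-107, to 0.38 for miR-15 and miR-16 and to 0.26 for miR-130 and miR-301, while those of miR-30 and miR-181 stayed below 0 at -0.12 and -0.07. mir-181d, at 1295 against 7502, had the largest fall among these (-2.53). The miR-200 family, which guards the epithelial state, was called lower in 1 of 5 hairpins. Of the 5, 4 had their highest value in state 2, all but mir-141: mir-200b was at 2198, 5430, 3766 and 3774 (-0.78, not called) and mir-200a, the one called, at 434, 1246, 755 and 881 (-0.80, and 0.17 relative to the column total).

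The largest fall at an appreciable level was that of mir-150, a microRNA of lymphocytes, with 128, 515, 1963 and 1315 (log2 ratio -3.93). mir-124-1 and mir-124-3, whose product is the main microRNA of neurons, stood at 11.1 against 113 (-3.24) and 34.3 against 331 (-3.23). The feature of the host transcript Mir124a-1hg, at 25.4 against 249, had the same log2 ratio (-3.24). That is also a small RNA value, in which reads of the transcript and of a hairpin inside it cannot be told apart. mir-3078, at 8.11 against 89.9, had a log2 ratio of -3.32. mir-211, in an intron of Trpm1, was listed at 0 in state 3 against 18.99 in state 1; against a floor of 3 reads it was at least 20.4-fold lower. mir-5110, at 0 against 9.48, was at least 10.2-fold lower. The calls of these last hairpins were lost with state 1 exchanged with the total population in the pattern order.

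Hox cluster microRNAs divided. These lie among the Hox genes, the transcription factors of body axis position. mir-196a-1 and mir-196a-2, in the Hoxb and Hoxc clusters, were at 175, 370, 1732 and 1046 and at 128, 284, 1297 and 758. Both were called lower, with log2 ratios of -3.30 and -3.33. mir-196b in the Hoxa cluster, which shares their seed, was at 77.0, 25.2, 34.6 and 46.6 and was called higher (1.13). mir-10b in the Hoxd cluster was at 506, 219, 119 and 155 (2.08) and mir-615 in the Hoxc cluster at 64.4, 12.3, 1.49 and 11.7 (4.71), both called higher. mir-615 had the largest called rise of all hairpins, from a state 1 value at the worth of about 3 reads. mir-10a, with the seed of mir-10b, was at 2375, 1457, 1026 and 1280 and was not called (1.21). Thus mir-615 and mir-196a-2, in the same Hox cluster, went opposite ways. The directions held under each scaling.

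Further called rises came from separate loci. mir-504 was at 141, 57.4, 18.6 and 26.5 (2.86). mir-375, known from pancreatic islets and endoderm, was at 146, 213, 22.7 and 43.6 (2.64), with its highest value in state 2. mir-483, in an intron of the growth factor gene Igf2, was at 181, 45.9, 15.3 and 45.1 (3.48). mir-297a-4 was at 69.9, 25.04, 4.77 and 26.7 (3.62), and mir-351 of the X-linked miR-322 to miR-450 cluster at 54.2, 16.5, 17.5 and 14.1 (1.57). Smaller called rises were those of mir-212 (92.2 against 41.2, 1.14), mir-455 (124 against 72.6, 0.77) and mir-224 (188 against 113, 0.73).

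mir-146a and mir-146b, feedback regulators of innate immune signalling with the same seed, moved apart. mir-146a was at 131, 126, 32.2 and 78.2 (1.99, called higher). mir-146b was at 118, 374, 599 and 508 (-2.33, called lower). In state 3 the 2 levels were nearly equal, and in state 1 mir-146b was far higher. mir-21a, a growth-linked microRNA abundant in many differentiated cells, was at 40047, 37008, 14545 and 24998 (1.46). It was the most abundant hairpin with a ratio above 0, but its summed posterior in the authors' deposited table was 0.0333 and it was not called.

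With state 1 exchanged with the total population in the pattern order, 6 of the 17 called rises passed the threshold. These were mir-224, mir-212, mir-351, mir-10b, mir-375 and mir-504. Of the falls, 126 hairpins were called under that order against 136.

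**Figure D4:**
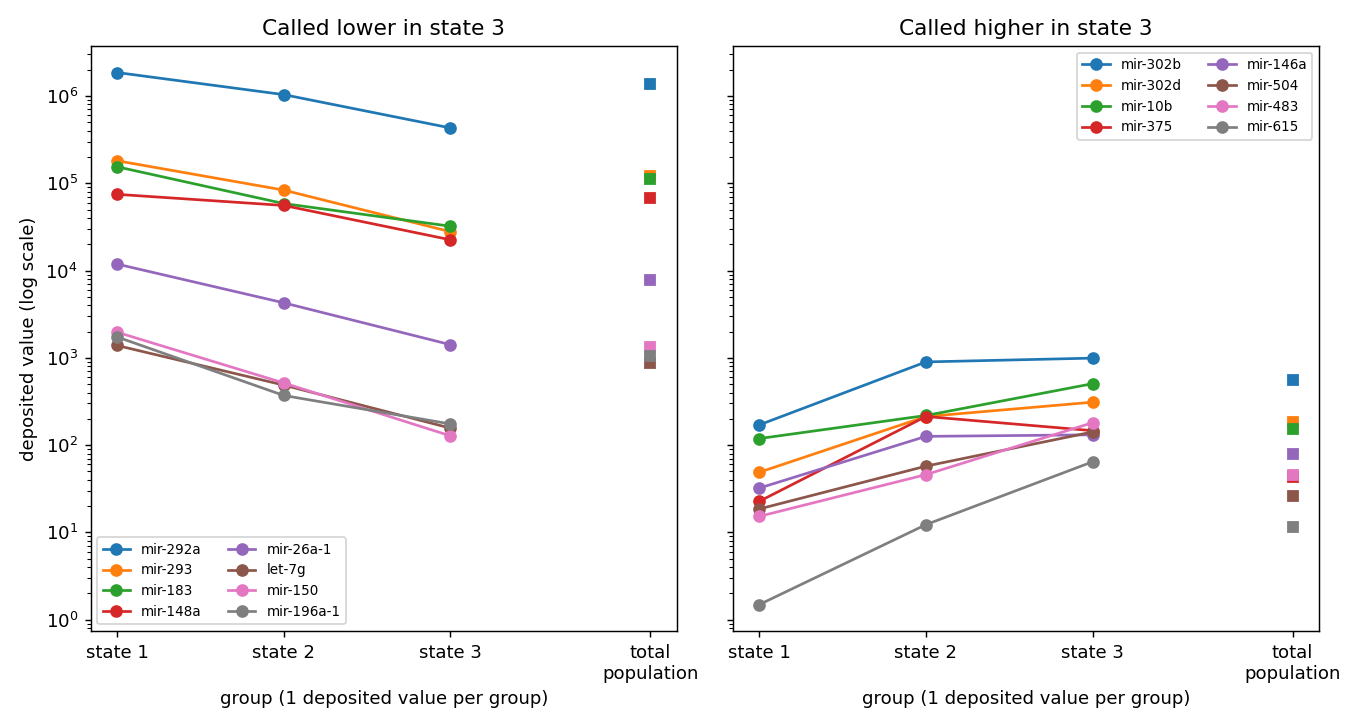
Deposited values (log scale) of 8 hairpins called lower (left) and 8 called higher (right), with circles joined from state 1 to state 3 and squares for the total population; each point is 1 merged value. mir-292a goes from 1855076 to 430145 and mir-150 from 1963 to 128, while mir-302b goes from 170 to 992 and mir-615 from 1.49 to 64.4; mir-375 is highest in state 2.

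State 2 lay between the ends for most called hairpins. This was so for 126 of the 136 falls. Over all 136 falls, state 2 stood at a median of 0.447 of the way from state 1 to state 3 (log2 scale). The quartiles were 0.292 and 0.574. The hairpin sums had the same order, at 3334638, 2000658 and 1008918 in states 1, 2 and 3. On the deposited scale this position of state 2 cannot be told apart from these sums. It was not computed on another scaling. Of the 17 rises 11 had state 2 between, 4 had it above both ends and 2 below both. Over all 17 rises the median was 0.794 of that way, which includes those with state 2 outside the ends. The median of the 11 alone was not computed. From the posteriors of the authors' deposited table, 58 of the falls were also called lower in state 2 than in state 1 and 84 lower in state 3 than in state 2, with 29 called in both steps and 23 in neither. For rises these counts were 10, 4, 1 and 4. Over all 605 hairpins, 73 (12.1%) were called between states 2 and 1 and 95 (15.7%) between states 3 and 2, against 0.696% and 0.97% of all features. All these comparisons share libraries. The total population, a mixture, lay between states 1 and 3 for 111 falls and 14 rises.

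Hairpins encoding the same mature sequence did not always have the same ratio. There were 25 such groups with 54 hairpins, and 12 of the 21 groups with a summed level over 20 had ratios within 0.3 of each other. In 4 of the 25 the ratios differed by more than 1. The sources used here do not state how reads matching several hairpins were divided. miR-9, a microRNA of neural progenitors, was the 1 group with opposite calls. mir-9-1 was at 323, 361, 1357 and 481 and was called lower (-2.07). mir-9-2 was at 324, 367, 18.9 and 480 and was called higher (4.03), and mir-9-3 at 322, 360, 18.3 and 483, also higher (4.06). In state 3, state 2 and the total population the 3 hairpins had nearly equal values, whereas in state 1 almost the whole signal lay on mir-9-1. Their sum was 969 in state 3 and 1395 in state 1, a log2 of sums of -0.52. Relative to the column total and to the hairpin sum the log2 of sums was 0.45 and 1.197, so the sign of the summed ratio depends on the scaling. The calls of all 3 hairpins were lost with state 1 exchanged with the total population in the pattern order.

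Called neighbours shared a direction. With a gap of at most 10 kb, 54 genomic clusters held 212 hairpins, and 20 clusters had 2 or more called members. In 19 of these all called members were lower, in 1 (miR-302 and miR-367) all were higher, and 0 held both directions, in a set where 136 of 153 calls were falls. With uncalled members included, 11 of the 54 clusters had ratios on both sides of 0, 36 had all below and 5 all above. Besides the clusters above, the X-linked mir-465 hairpins were called lower in 4 of 4 (chrX:66825955-66835842, median -2.90), and so were mir-191 and mir-425, which lie together on chromosome 9 (median -2.28). The imprinted Dlk1-Dio3 domain on chromosome 12, whose microRNAs come from the maternal allele, had 5 of 36 hairpins called, all lower (mir-379, mir-541, mir-382, mir-134 and mir-381). Its median of -0.69 was near that of all hairpins and turned to 0.14 relative to the column total. The Sfmbt2 intronic families, an expanded rodent locus, had 1 of 39 called (mir-297a-4). Their most abundant member, mir-669c, was at 2623, 7418, 2706 and 2759, highest in state 2 and not called.

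Markers of other cell types were read in the same table. Lists known for neural tissue had 9 of 23 hairpins called lower and 3 higher (median -0.91), mesenchyme 6 and 1 of 23 (-0.58), endoderm and trophoblast 3 and 1 of 11 (-0.73), blood 3 and 1 of 10 (-1.33), and muscle 0 of 5 (0.25, none at 10 ppm). Embryonic stem cells also express many of these, and relative to the column total the medians were 0.00, 0.33, 0.13, -0.39 and 0.51. Over all 605 hairpins 22.5% were called lower and 2.81% higher, with a median of -0.59, close to that of the mesenchyme list. The 3 neural rises include mir-9-2 and mir-9-3. These share a mature sequence with mir-9-1, called lower, and the log2 of sums of the group was -0.52. The defining mesenchymal markers summed to 135 in state 3 and 580 in state 1, with 0 of the 4 measured at 0 in state 3, while mir-199a-2 and mir-199b were not listed. In the RNA-seq table Col1a1, a collagen of mesenchyme, was at 827 against 23.0 and called higher (5.11), and so was the collagen gene Col3a1, at 167 against 2.61 (5.54). Dcn (12.4 against 0), Lum (1.46 against 0.32), Thy1 (59.3 against 42.2) and Prrx1 (2.97 against 0.97), genes of fibroblasts and mesenchyme, were not called. The part of such cells in the ratios above was not tested.

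**Figure D5:**
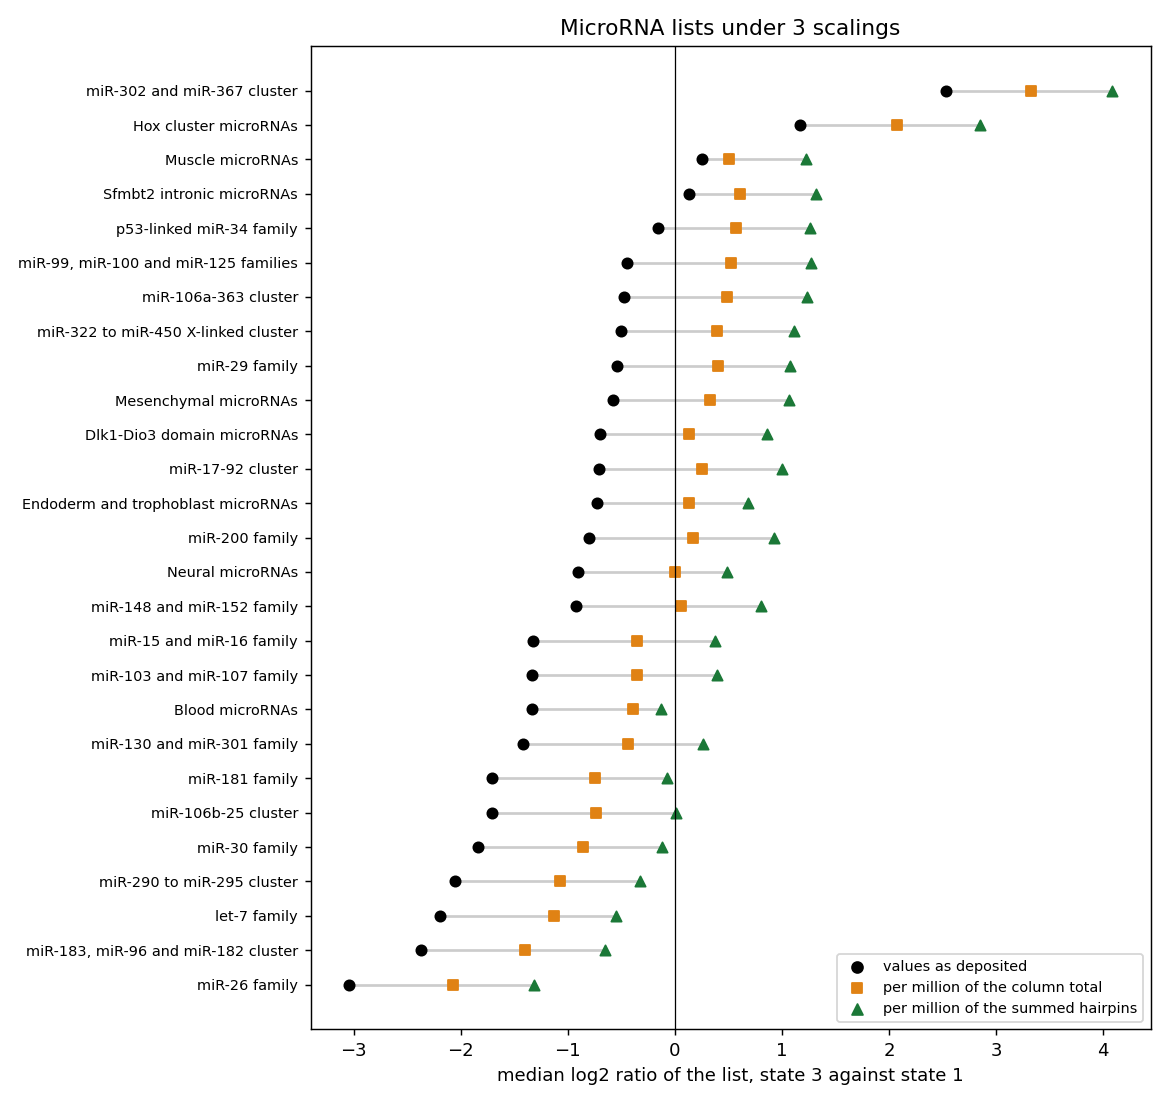
Median log2 ratio of each of the 27 lists as deposited (circles), relative to the column total (squares) and relative to the summed hairpins (triangles). The medians of 23, 11 and 7 lists are below 0; those of the miR-26 and let-7 families and of the clusters of miR-183 and of miR-290 to miR-295 are below 0 in each, and those of the miR-302 cluster and the Hox microRNAs above 0.

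The RNA-seq table, made from 3 other libraries per group, allowed the host genes to be set beside their hairpins. There Nanog stood at 440 in state 3 and 4145 in state 1 and Sox2 at 1306 and 4155, both called lower, which is what the sort selected. Pou5f1, the core pluripotency factor that did not define the sort, was at 9826 against 13810 and missed the threshold at a summed posterior of 0.931 in the authors' deposited table. Of all 29692 RNA-seq genes, 6070 (20.4%) were called, 11.4% higher and 9.01% lower. Of 42 host genes, 29 had a called hairpin.

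Of 25 hosts whose called hairpins were all lower, 5 were called lower in RNA-seq, 3 higher and 17 not at all, with a median RNA log2 ratio of 0.01. Ctdsp2, host of mir-26a-2, was at 1573 against 2590 (-0.72, called lower). Ctdsp1, host of mir-26b, was at 1467 against 765 and was called higher (0.94) although its hairpin was called lower (-1.71). Mcm7, host of miR-106b-25, was at 5437 against 7328 (-0.43, called lower), and Huwe1, a ubiquitin ligase gene that hosts let-7f-2 and mir-98, at 18761 against 22308.5 (-0.25, called lower). Smc4, a condensin gene hosting mir-15b and mir-16-2, was at 2121 against 2045 and was not called (0.05). In these hosts the RNA ratios were smaller in size than those of their hairpins.

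Hosts of hairpins with a ratio above 0 were fewer. Igf2, host of mir-483, was at 5784 in state 3 and 227 in state 1 (4.67, called higher). Sfmbt2 was at 1879 against 568 (1.73, called higher). Its 39 hairpins, with a median of 0.13, summed to 3434 against 3491 (log2 of sums -0.02), and 1 was called. Larp7, whose intron holds the miR-302 and miR-367 cluster, was at 1051 against 843, called higher with a log2 ratio of 0.32. Whether this cluster, on the plus strand, is made from the Larp7 transcript was not tested. The Larp7 ratio therefore cannot be read as that of the cluster's precursor. Hoxd4, beside mir-10b, was at 4.45 against 0.64 and was not called. Vmp1, the neighbour whose transcription runs into mir-21a, was at 766 against 486 (0.66, called higher). Hoxb4, next to mir-10a, was at 32.4 against 2.89 (3.10, called higher). Of the 4 hosts whose called hairpins were all higher, 3 were called higher in RNA-seq, namely Igf2, Sfmbt2 and Larp7. Sfmbt2 enters this count through 1 of its 39 hairpins, and Larp7 was not shown to be the precursor of its cluster. Several other hosts were called higher while their hairpins had ratios below 0. Mest, an imprinted gene, was at 3148 against 1543 (1.03), and its hairpin mir-335 at 6723 against 18501 (-1.46, not called). Slit3 had a log2 ratio of 2.26 and its hairpin mir-218-2 one of -0.91 (not called). For Evl and mir-342 these were 0.68 and -0.67 (hairpin not called). Pank3 was called higher and its hairpin mir-103-1 lower (-1.34). Mir22hg, Rnf130 and Rian also rose over hairpins with a ratio or median below 0.

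Outside the hairpins 275 of 25673 features (1.07%) were called, 128 (0.499%) higher and 147 (0.573%) lower. Fragments of messenger RNAs made up most of these, with 103 higher and 87 lower among 16001. They were also most of the features, and their share called, 1.19%, was near the 1.07% of all features outside the hairpins. Lrp2, a lipoprotein receptor gene of absorptive epithelia, was at 93.2 against 10.1 (3.08), Car2, a carbonic anhydrase gene, at 56.6 against 8.75 (2.56), and Itga3, an integrin gene, at 53.4 against 11.1 (2.17), all called higher. Atp9a, a flippase gene, was at 124 against 618 (-2.31) and the linker histone gene Hist1h1c at 181 against 1112 (-2.61), both called lower. Whether such reads are fragments of the transcript or of a small RNA inside it cannot be told apart in this table.

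Features typed rRNA took a larger share of state 3, and 3 of 174 (1.72%, against 1.63% of all features) were called, all of them lower. The feature CT010467.1, typed rRNA, was at 661165, 349500, 390926 and 434940 (0.76, not called) and was the largest single feature of state 3. It made up nearly all of the class sum, while the median log2 ratio of the class was -0.36. Mitochondrial rRNAs stood at 36369 against 20780 for mt-Rnr2 (0.81) and 11543 against 6238 for mt-Rnr1 (0.89), neither called. Mitochondrial mRNA fragments were called higher for 6 of 13 features and lower for 1, a share of 53.8%. All 13 were at 10 ppm or more, where 20.7% of all features were called. mt-Co1, a subunit of the respiratory chain, was at 4066, 1412, 1885 and 4060 (1.11) and mt-Atp6 at 830, 108, 206 and 1090 (2.01). In both, state 3 and the total population lay together, above states 1 and 2. mt-Th, a mitochondrial tRNA, was at 3820, 916, 963 and 2087 (1.99). The calls of mt-Co1, mt-Atp6 and mt-Th were lost with state 1 exchanged with the total population in the pattern order.

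Small nucleolar RNAs, which guide rRNA modification, took a like share of the column in every group. As deposited, their sum was 1.98-fold lower in state 3 than in state 1. They were called higher in 2 and lower in 19 of 428 (4.91%, against 1.63% of all features). Of the 196 snoRNAs of at least 10 ppm 19 were called, against 20.7% of all features at that level. One of the most abundant, Gm25789, was at 52925 against 105173 (-0.99) and was not called; relative to the hairpin sum it turned to 0.73. Snord68 was called higher, at 161, 6.88, 17.2 and 0 (3.15). Among stable noncoding RNAs the telomerase RNA Terc, at 78.6 against 155 (-0.97), and the RNA of RNase MRP, Rmrp, at 120 against 219 (-0.86), were called lower. Rmrp turned to 0.11 relative to the column total and to 0.85 relative to the hairpin sum, and Terc to 0.73 relative to the hairpin sum. The call of Terc was lost with state 1 exchanged with the total population. Features typed snRNA had 0 of 384 called at a posterior of 0.95, against 1.63% of all features. Only 29 of them were at 10 ppm or more. Rny1 and Rny3, the Y RNAs, were at 7298 against 7182 (0.02) and 2523 against 3088 (-0.29), and neither was called.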

How the data were processed

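Small RNA libraries (NEB kit, adapter ligation, single-end reads) were made by the submitters after sorting and Trizol extraction, 2 per group, per the labels' protocols. RSEM 1.2.30 and STAR 2.4.1d are named as tools, and GRCm38 and mm10 as builds, per the submitters' processing notes, which give no roles. How libraries were scaled and merged was not stated. Each table deposited by the authors holds a normalized signal, merged over the libraries of a group to 1 value per feature, and a score for each of 15 EBSeq patterns of equal and unequal groups, a posterior probability. No p-value was computed, and since no label ties the libraries to separate cultures, the spread behind the posteriors may be technical. Column totals were 2.61 M in state 3 and 5.13 M in state 1.

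The posteriors were summed over patterns that set the 2 states apart and called at 0.95 (Python 3.11.15, pandas 2.3.3, numpy 2.4.6), with the direction from the values. The tables do not spell out the patterns. The order used put groups set equal closer together in 100% of the 161 features examined; exchanging state 1 and the total population, the closest rival order, gave 85.7%. The code that sums the posteriors was tested on simulated data, where it called 143 of 143 simulated features set apart between the states and 0 others; this checks the code, not the calls. Values of 0 were set to a floor of 3 reads for a bound, and such limits cover counting error only.

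Members, lists, hosts and alternatives were chosen with earlier results of these data known. Named hairpins were the 4 most abundant of each list and the 8 largest called rises and falls of at least 10 ppm of the column total; other classes gave their 3 most abundant and up to 4 called features. Outside this rule, and after their values were seen, let-7a-2, let-7e, let-7f-2, mir-98, mir-134, mir-191, mir-196b, mir-211, mir-212, mir-224, mir-335, mir-382, mir-425, mir-455, mir-541, mir-5110, mir-9-1 and the remaining members of the miR-290 to miR-295 and miR-302 clusters were named. Host genes came from a list of 42.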

Additional observations from a re-analysis of the deposited data

How the results depend on the processing

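No paired analysis was possible because each table holds 1 merged value per group, and leaving out replicates was not run for that reason. At a posterior threshold of 0.5, 904 features were called (352 higher, 552 lower), of which 720 were not hairpins (329 higher, 391 lower); the hairpin counts stayed within 1.5 times at 0.5 and at 0.99. At 10 or more ppm, 278 features were called, 86 of them higher, and 139 outside the hairpins (70 higher, 69 lower), since fewer features were tested. A fold of 2 without the posterior gave 5292 features (2289 higher, 3003 lower), 270 hairpins (46 higher, 224 lower) and 5022 others (2243 higher, 2779 lower). Exchanging state 1 and the total population in the pattern order left 6 hairpins higher. Relative to the column total 28 called hairpins were higher. Relative to the summed hairpins the called features split into 271 higher and 157 lower, the hairpins into 72 and 81, and the others into 199 and 76. Of 27 list medians, 23 were below 0 as deposited, 11 relative to the column total and 7 relative to the hairpin sum. Relative to the column total 11 called falls of hairpins and 27 of other features turned positive; those named in the text are Rmrp (0.11), mir-134 (0.047), mir-18a (0.26), mir-200a (0.17) and mir-381 (0.21). Relative to the hairpin sum 55 and 71 did; those of the named features are 0.85 for Rmrp, 0.73 for Terc, 0.29 for mir-106b, 0.78 for mir-134, 0.37 for mir-15b, 1.00 for mir-18a, 0.92 for mir-200a, 0.018 for mir-26b, 0.35 for mir-290b, 0.18 for mir-292b, 0.69 for mir-363, 0.64 for mir-379, 0.96 for mir-381, 0.71 for mir-382, 0.66 for mir-541 and 0.012 for mir-93. These reversals follow from the column sums. Summing hairpins of one mature sequence, chosen after seeing the data, turned mir-9-2 and mir-9-3 to -0.52. Pseudocounts of 0.1 and 10 changed the sign of 0 of 100 named features. Features with a value near 0.93 to 2.22 rest on about 3 reads.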

Other observations

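Levels of the hairpins of at least 10 ppm of the column total differed by chromosome. The median log2 ratio was -1.96 over the 18 hairpins of chromosome 7, where 17 were called, and -0.40 over the 20 of chromosome 2, which holds the Sfmbt2 families. The 24 hairpins of the X chromosome had a median of -0.77, with 3 called higher and 11 lower. Chromosome 7 holds the 9 hairpins of the miR-290 to miR-295 cluster.

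Some features outside the hairpins were present in a few groups only. Values are in the order state 3, state 2, state 1, total population. Snora16a, a small nucleolar RNA, was listed at 0, 0, 107 and 0, and Gm24253, typed snoRNA, at 59.4, 0, 0.01 and 93.7. Gm12895, a pseudogene-type feature, was at 319, 41.0, 0 and 132. The mitochondrial mRNA mt-Co2, a subunit of cytochrome oxidase, was at 118, 0, 581 and 282 and was called lower (-2.29), against the direction of the other called mitochondrial mRNAs. These patterns rest on 1 merged value per group, and the share of each library in them was not tested.

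The noncoding feature Gm42418 was at 24919, 15626, 13606 and 9005 and was called higher (0.87). The most abundant messenger RNA feature, Lars2, was at 72804, 54818, 57447 and 48203 (0.34, not called), and the snoRNA host Gas5, a growth-arrest transcript, at 13350, 16942, 23780 and 13499 (-0.83, not called).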
